A study of Homo sapiens with 24 samples.

Results

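The HOX cluster genes were followed in 3 human T-cell lines exposed to azacitidine (AZA) or decitabine. They were taken as every gene symbol made of HOX, a cluster letter A to D and a number, which gave 39 of the 25559 genes counted: 11 of the HOXA cluster, 10 of HOXB, 9 of HOXC and 9 of HOXD. Whole-transcript RNA sequencing of 24 libraries compared PF382 (T-cell acute lymphoblastic leukemia), TLOm1 (adult T-cell leukemia) and HH (cutaneous T-cell lymphoma), each grown for 96 h with drug added every 24 h or left untreated. AZA was given at 125, 250 and 500 nM to PF382 and TLOm1 and at 50, 125 and 250 nM to HH, and decitabine was given at 5, 12.5 and 25 nM to each line. The libraries formed an AZA set and a decitabine set of 12 each, and every line had 1 untreated library in each set and 1 library per dose. All are established lines, so each stands for 1 tumor, and nothing in the labels says that libraries came from separate cultures. The p-values therefore measure the spread between these libraries, with doses of a line serving as repeats of the treatment.

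HOX genes encode homeodomain transcription factors that give cells along the embryonic axis their regional identity, and the order of the genes within each cluster follows the order in which they act from head to tail. Polycomb complexes keep the clusters silent, the MLL and menin complex keeps them active, and TALE proteins of the PBX and MEIS families bind DNA together with the HOX proteins. In blood, HOXA and HOXB genes are active in stem and progenitor cells and are often retained in leukemia. AZA and decitabine are cytidine analogs that trap DNA methyltransferases once built into DNA, so that methylation at CG dinucleotides is lost as cells divide.

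Levels are given as CPM, the count scaled to the library total. The libraries held 13892514 to 32496676 counts (median 24346130 for those with AZA and their controls, 19652146 for those with decitabine and theirs), so a count of 0 allowed a level of up to 0.0923 to 0.216 CPM (3 counts per library, counting error only). Of 8 T-cell markers in the files, 8 reached 1 CPM in untreated PF382, 4 in TLOm1 and 6 in HH. In untreated TLOm1 CD3D, a gene of the T-cell receptor complex, had 0.731 and 0.0463 CPM and CD7 had 0.244 and 0.0463 CPM. CD4 had 959 and 838 CPM there. The exons of 9 members overlap those of another member on the same strand in 6 pairs (HOXB3 with HOXB4 and HOXB6, HOXC4 with HOXC5 and HOXC6, HOXC6 with HOXC9, and HOXD10 with HOXD11), so their counts may be shared or lost and are uncertain. In bulk RNA, fewer cells with a transcript and less transcript per cell cannot be told apart.

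The windows upstream of 5 genes that rose with dose in PF382 in at least 1 dose test are shown because both drugs act on CG dinucleotides. Each holds the 250 bases before an annotated start, read 5′ to 3′ on the gene's strand from RefSeq on GRCh38.p14, with every CG in capitals. They lie at chr2:176092471-176092720 (plus strand) for HOXD13, chr2:176129455-176129704 (plus) for HOXD8, chr12:54016638-54016887 (plus, shared with HOXC5) for HOXC4, chr7:27156676-27156925 (minus) for HOXA7 and chr2:176151300-176151549 (plus) for HOXD4.
HOXD13: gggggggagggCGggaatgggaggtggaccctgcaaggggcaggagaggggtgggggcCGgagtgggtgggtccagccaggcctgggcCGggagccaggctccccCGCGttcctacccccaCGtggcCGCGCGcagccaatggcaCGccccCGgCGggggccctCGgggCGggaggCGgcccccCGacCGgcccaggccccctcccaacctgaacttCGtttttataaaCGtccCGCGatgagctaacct
HOXD8: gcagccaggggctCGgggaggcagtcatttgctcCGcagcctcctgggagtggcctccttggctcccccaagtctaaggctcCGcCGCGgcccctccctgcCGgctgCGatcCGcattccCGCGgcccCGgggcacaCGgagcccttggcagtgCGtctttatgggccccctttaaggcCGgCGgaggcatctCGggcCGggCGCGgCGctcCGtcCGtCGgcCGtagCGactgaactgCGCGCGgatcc
HOXC4: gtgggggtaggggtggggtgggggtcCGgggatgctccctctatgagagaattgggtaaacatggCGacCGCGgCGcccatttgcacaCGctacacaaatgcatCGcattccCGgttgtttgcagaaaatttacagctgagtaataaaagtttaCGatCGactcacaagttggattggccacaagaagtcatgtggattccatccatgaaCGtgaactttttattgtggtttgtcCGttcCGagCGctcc
HOXA7: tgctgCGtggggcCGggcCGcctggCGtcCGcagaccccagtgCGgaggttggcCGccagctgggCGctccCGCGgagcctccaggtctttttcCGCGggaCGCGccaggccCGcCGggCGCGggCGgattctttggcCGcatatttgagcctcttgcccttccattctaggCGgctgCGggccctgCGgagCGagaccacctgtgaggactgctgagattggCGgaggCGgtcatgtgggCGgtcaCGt
HOXD4: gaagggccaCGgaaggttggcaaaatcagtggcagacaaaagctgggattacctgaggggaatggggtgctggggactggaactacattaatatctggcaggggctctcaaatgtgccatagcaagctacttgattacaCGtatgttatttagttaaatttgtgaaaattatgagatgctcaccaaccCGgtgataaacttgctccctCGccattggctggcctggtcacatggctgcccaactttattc

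HOXD8 and HOXA7 had 28 CG dinucleotides each in these windows, more than 84.1% of the 35116 windows in the table. HOXD13 had 21, HOXC4 had 14 and HOXD4 had 4, with 69.8%, 55.2% and 29.3% of windows holding fewer. A window was available for 20 of the 39 members, in 27 entries, with a median of 19 CG against 11 over all windows. At least 1 CG stood in 96.3% of the HOX windows and 93.9% of all windows, and at least 10 stood in 21 of the 27 HOX windows and 52.2% of all windows. The CG motif was searched on one strand, being its own complement, and no methylation was measured.

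**Figure D1:**
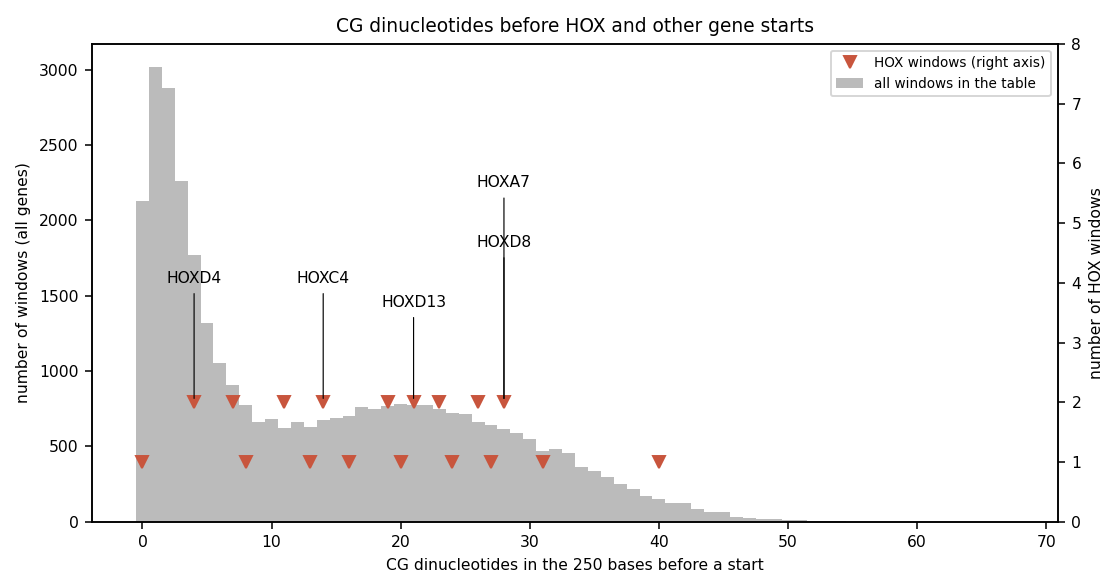
Number of CG dinucleotides in the 250 bases before the annotated start (x axis) in all 35116 windows (grey bars, number of windows on the left axis) and in the 27 HOX windows (red triangles, number on the right axis). The HOX windows have a median of 19, against 11 for all windows.

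Untreated, the 3 lines used different parts of the clusters (the heat map of HOX levels shows every library). A member was called on where both untreated libraries of a line reached 1 CPM, and off where both were lower. By this rule 5 of 39 members were on in PF382 (HOXA3, HOXA5, HOXB3, HOXB4 and HOXB7), 13 in TLOm1 (among them HOXA7, HOXB2, HOXB3, HOXB4, HOXB6, HOXB7, HOXB8, HOXB9, HOXB13, HOXC4, HOXC6 and HOXD4) and 6 in HH (HOXB2, HOXB3, HOXB4, HOXB7, HOXB8 and HOXB9). The same rule called 48.9% of all genes on in PF382, 48% in TLOm1 and 46.9% in HH. The HOXB cluster gave 3 of the 5 members on in PF382, 8 of the 13 in TLOm1 and all 6 in HH. HOXB3, HOXB4 and HOXB7 were on in every line, HOXB2, HOXB8 and HOXB9 in both TLOm1 and HH, and 24 members in none. HOXD8 and HOXD13 in PF382 and HOXA5 in TLOm1 had 1 library on each side of the threshold.

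**Figure D2:**
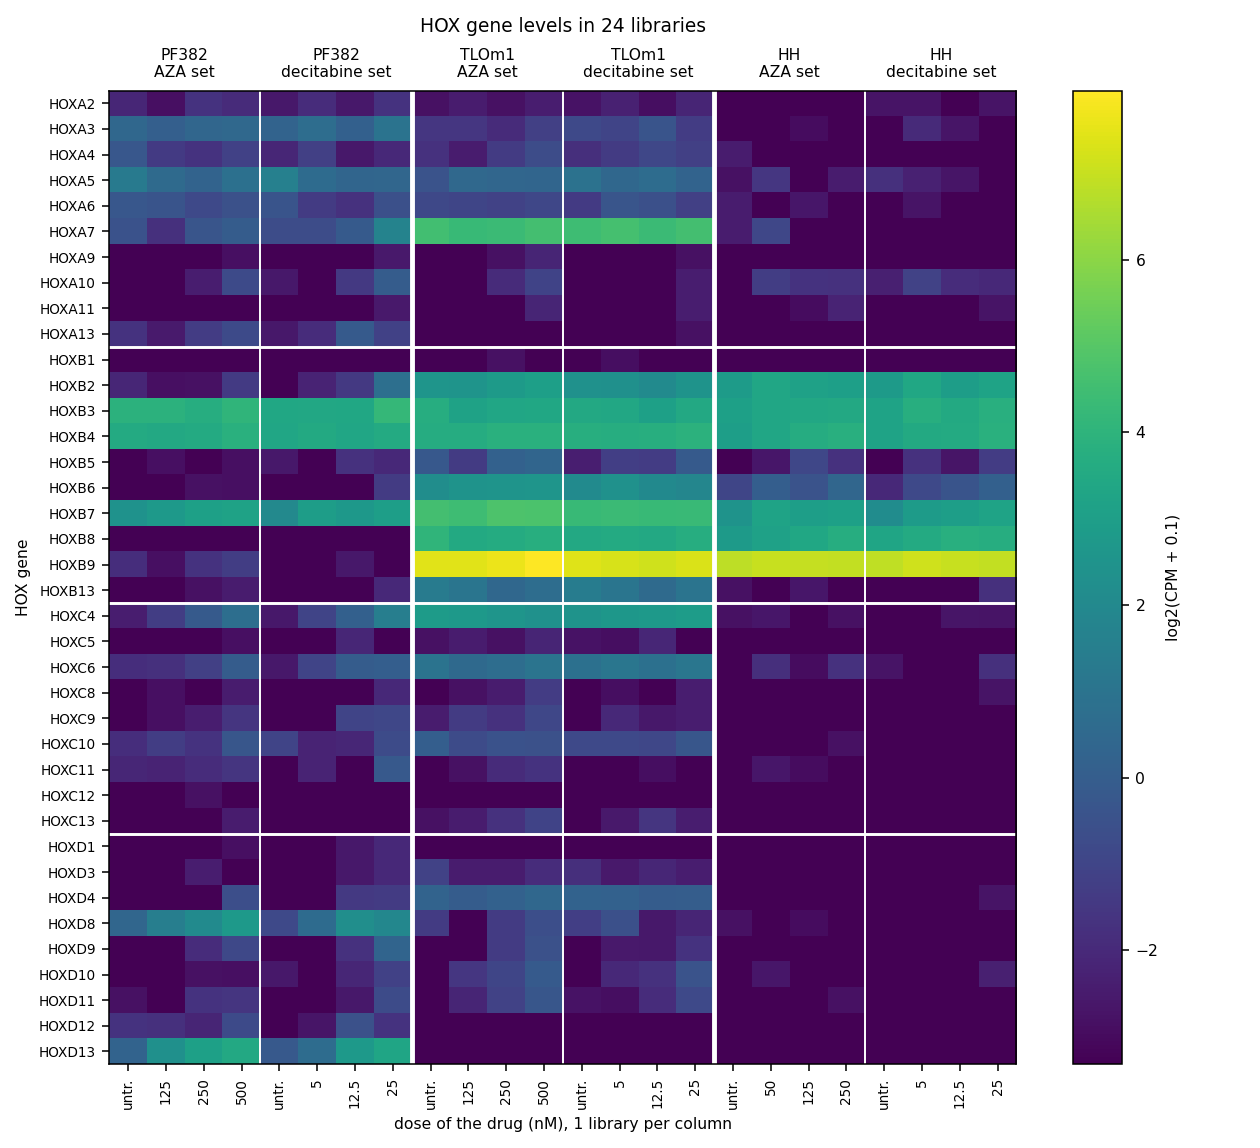
Level of the HOX cluster genes (rows, by cluster) in the 24 libraries (columns, by line, library set and dose from untreated to high), as log2(CPM + 0.1) in color. The HOXB block is bright in TLOm1 and HH and mostly dark in PF382, and HOXD13 has counts in the PF382 columns alone.

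The level of HOXB9, a gene of the posterior HOXB cluster that patterns the thoracic skeleton in mice, set PF382 apart from the other lines. It had 4 and 0 counts in the 2 untreated PF382 libraries, against 175 and 170 CPM in TLOm1 and 115 and 118 CPM in HH. No libraries overlapped. The log2 difference was -10.23 for PF382 minus HH and -10.77 for PF382 minus TLOm1, but its size rests on the 4 counts of 1 PF382 library. It was -9.52 and -10.1 from that library alone, and no size can be given from the other, which had 0. HOXB8, which blocks myeloid differentiation when forced in mouse progenitors, had 0 counts in all 8 PF382 libraries, treated and untreated. It had 16.5 and 11.1 CPM in untreated TLOm1 and 7.07 and 9.69 CPM in untreated HH, so the level in PF382 was at least 178-fold lower than in TLOm1 and at least 105-fold lower than in HH (3 counts over both libraries as the floor). HOXB2, a hindbrain gene, had 3 and 0 counts in PF382, against 5.81 and 5.18 CPM in TLOm1 and 7.28 and 6.91 CPM in HH.

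Between untreated PF382 and HH, edgeR's quasi-likelihood test called 11 of 19 members tested, 7 higher and 4 lower in PF382 (Benjamini-Hochberg adjusted p under 0.05). Over all genes 66.4% were called, so the share among HOX members is close to that background. The 7 higher members were HOXA3, HOXA5, HOXA6, HOXA7, HOXC10, HOXD8 and HOXD13, all outside the HOXB cluster (background for higher 34.4%). The 4 lower ones were HOXB2, HOXB6, HOXB8 and HOXB9 (background for lower 32%). HOXA5, which acts in lung development and in myeloid cells, had 2.31 and 2.93 CPM in PF382, against 1 and 4 counts in HH, a log2 difference of 4.33 ± 0.64. HOXA3, needed for the thymus in mice, had 1.27 and 1.11 CPM in PF382 and 0 counts in HH, at least 17.8-fold higher in PF382.

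TLOm1 had the widest HOX expression. It was higher than HH in 15 of 19 members tested and lower in 0, where 28.1% and 27.6% of all genes were called in these directions. Members that passed the low-count filter through TLOm1 alone, such as HOXB13 and HOXD4, could not be called lower in TLOm1. The split between directions therefore depends in part on the filter, which was the same for all genes. DESeq2, run on the same filtered members, called 0 lower as well and does not bear on the filter. Without the filter, 18 of 32 members were higher and 0 lower, where 4490 and 4395 of 20495 genes were. HOXA7, a gene raised in MLL-rearranged leukemia, had 23.2 and 21.7 CPM in untreated TLOm1, against 2 and 0 counts in HH, a log2 difference of 8.78 ± 0.47. HOXC4, which in mouse B cells turns on the deaminase AID, had 7.11 and 5.51 CPM in TLOm1 and at most 1 count in HH. HOXB7, linked to proliferation in several tumors, had 23.9 and 19.4 CPM in TLOm1, against 5.47 and 4.42 CPM in HH, a difference of 2.10 ± 0.21. HOXD4, at the anterior end of its cluster, had 1.1 and 1.06 CPM in TLOm1 and 0 counts in HH, at least 16-fold higher in TLOm1. Smaller differences also passed, with HOXB9 at 0.54 ± 0.14 and HOXB4, which expands blood stem cells when forced, at 0.56 ± 0.22 (adjusted p = 0.0454). HOXB4 did not pass without any 1 of the 4 libraries of these lines, nor HOXB9 without the AZA-set library of either line, and neither did without the set as a block. DESeq2 gave 11 higher members, as did leaving out the AZA-set library of HH.

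PF382 was lower than TLOm1 in 11 of the same 19 members and higher in 2, with 33.3% and 33.9% of all genes called lower and higher. Here too, members that passed the filter through TLOm1 alone could be called only lower in PF382, and HOXD13, which passed through PF382 alone, only higher. The lower members included HOXA7, HOXB2, HOXB6, HOXB7, HOXB8, HOXB9, HOXB13, HOXC4, HOXC6 and HOXD4. HOXB13, a prostate lineage factor, had 0 counts in both untreated PF382 libraries and 2.48 and 2.55 CPM in TLOm1, at least 32-fold lower in PF382. HOXB6, expressed in lateral mesoderm, also had 0 counts in PF382, against 4.47 and 4.07 CPM in TLOm1, at least 54.6-fold lower in PF382. The 2 higher members were HOXA3 and HOXD13. HOXD13, the last gene of the HOXD cluster and needed for digits, had 25 and 12 counts in PF382 and 0 in TLOm1 and HH, at least 14.9-fold and 14.3-fold higher in PF382. The count of higher members was 0 without the untreated AZA-set library of PF382, 1 without either library of TLOm1 and 0 with DESeq2.

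The other 20 members stayed under 1 CPM in all 24 libraries: HOXA2, HOXA4, HOXA6, HOXA9, HOXA10, HOXA11, HOXA13, HOXB1, HOXC5, HOXC8 to HOXC13, HOXD1, HOXD3, HOXD10, HOXD11 and HOXD12. The highest of their values was 0.935 CPM, for HOXC10 in the untreated AZA-set library of TLOm1, and no member had 0 counts in every library. HOXA9, the HOX gene most often tied to myeloid leukemia, had 7 counts in all, with no more than 3 in a library. HOXB1 had 2 counts in all, HOXC12 had 1 and HOXD1 had 4. HOXA6 had 181 counts and HOXC10 170, the most among these members.

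Whether the drugs changed the clusters was first asked across the lines, with the 9 treated libraries of a drug set against the 3 untreated libraries of its set and the line as a block. With AZA, edgeR called 0 of 20 members tested (19 did not pass the filter on low counts), where 1.17% of all genes were called. DESeq2 also called 0, and 2 members had an unadjusted p under 0.05. HOXD13 differed by 2.81 ± 0.62 (adjusted p = 0.101), carried by PF382 since the other lines had 0 counts, and HOXB7 by 0.41 ± 0.13 (adjusted p = 0.13). With decitabine, edgeR and DESeq2 called 0 of 18 members, edgeR called 0% of all genes, and 2 members had an unadjusted p under 0.05. These were HOXB7, at 0.52 ± 0.16 (adjusted p = 0.175), and HOXA5, at -0.98 ± 0.33 (adjusted p = 0.21).

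HOXB7 was the member that was most often above its untreated library, in 17 of 18 treated libraries. In PF382 it had 5.37 CPM untreated and 6.66, 8.41 and 9.01 CPM at 125, 250 and 500 nM AZA, and 3.84 CPM untreated and 7.69, 6.35 and 7.85 CPM at 5, 12.5 and 25 nM decitabine. In HH it had 5.47 CPM untreated and 9.27, 8 and 8.35 CPM at rising AZA doses, and 4.42 CPM untreated and 7.14, 7.93 and 9.35 CPM at rising decitabine doses. Every treated library of these 2 lines was above both untreated libraries of its line, by pooled ratios of 1.49 (95% exact interval 1.23 to 1.83) and 1.9 (1.44 to 2.55) in PF382 and of 1.54 (1.27 to 1.87) and 1.85 (1.47 to 2.34) in HH for AZA and decitabine. In TLOm1 the ratios were 1.07 and 1.03, and the treated libraries, at 19.5 to 27.7 CPM, overlapped the untreated ones at 23.9 and 19.4 CPM. The intervals cover counting error only.

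Tested line by line, with 1 untreated library against 3 doses and all 24 libraries in the fit, no member passed either. Of 29 members tested in each contrast, edgeR called 0 with AZA in PF382, TLOm1 and HH, where 0.83%, 0.998% and 0% of all genes were called, and 3, 1 and 6 members had an unadjusted p under 0.05. It called 0 with decitabine in PF382, TLOm1 and HH, where 0.258%, 0% and 0% of all genes were called, with 6, 1 and 2 members under the unadjusted threshold. DESeq2 called 1 member in these 6 contrasts, HOXB7 with decitabine in PF382, whose log2 difference by edgeR was 0.88 ± 0.22 (adjusted p = 0.107). The drug effect was not found to differ between lines for any of 29 members by edgeR, with 0.146% of all genes called for AZA and 0.00561% for decitabine, and 2 and 1 members under the unadjusted threshold. With both untreated libraries of a line as controls, AZA called HOXB7, HOXC4 and HOXD13 of 27 members in PF382, HOXD10 in TLOm1 and HOXB7 in HH, where 4.23%, 10.3% and 6.09% of all genes were called, and decitabine called HOXC4 in PF382, where 8.57% were. A single member of 27 is a smaller share than those of TLOm1, HH and decitabine in PF382.

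The 3 doses of a drug offered a second comparison that did not use the single untreated library. Among the 18 treated libraries, the slope of each gene on log2 dose was tested within each line, so that a slope of 1 means a doubling of the level for each doubling of the dose. Of 28 members tested, edgeR found 4 that rose with AZA dose in PF382, 4 in TLOm1 and 0 in HH, against 5.96%, 11.4% and 7.57% of all genes. It found 8 that rose with decitabine dose in PF382, 0 in TLOm1 and 0 in HH, against 10.7%, 1.85% and 3.94% of all genes. The share of members was 14.3% with AZA in PF382 and 28.6% with decitabine in PF382, each over 2-fold the share of all genes, while that with AZA in TLOm1 was 14.3% and near its background. Low members such as HOXA10 and HOXD9 could pass the low-count filter through their highest doses, so part of these shares follows from the filter. Without it, 7 and 8 of 39 members rose in PF382 with AZA and decitabine, where 1184 and 1964 of 22497 genes did. In the 3 series with 0 rising members, 3 members each had an unadjusted p under 0.05, and DESeq2 called 0 rising. In HH, 1 member fell with AZA dose (background for lower 6.08%), HOXA7, which had 7 counts at 50 nM and 0 at 125 and 250 nM, and the call rests on that library.

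HOXD13 in PF382 rose with the dose of both drugs. It had 1.09 CPM untreated and 5.01, 8.53 and 11 CPM at 125, 250 and 500 nM AZA (25, 128, 201 and 277 counts), and 0.782 CPM untreated and 1.49, 6.49 and 9.93 CPM at 5, 12.5 and 25 nM decitabine (12, 26, 97 and 138 counts). Every treated library was above both untreated ones, and within each drug the level was higher at each higher dose. The slope was 0.54 ± 0.16 per doubling of AZA (adjusted p = 0.0336) and 1.09 ± 0.17 per doubling of decitabine (adjusted p = 6.83e-05). Pooled over doses the ratio to untreated was 7.49 (5.02 to 11.7) with AZA and 7.22 (4.06 to 14.1) with decitabine. The AZA slope did not pass without any 1 of the 3 AZA libraries of PF382 or with DESeq2, and the decitabine slope did not pass without the 5 nM library. HOXD13 had 0 counts in all 16 libraries of TLOm1 and HH.

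**Figure D3:**
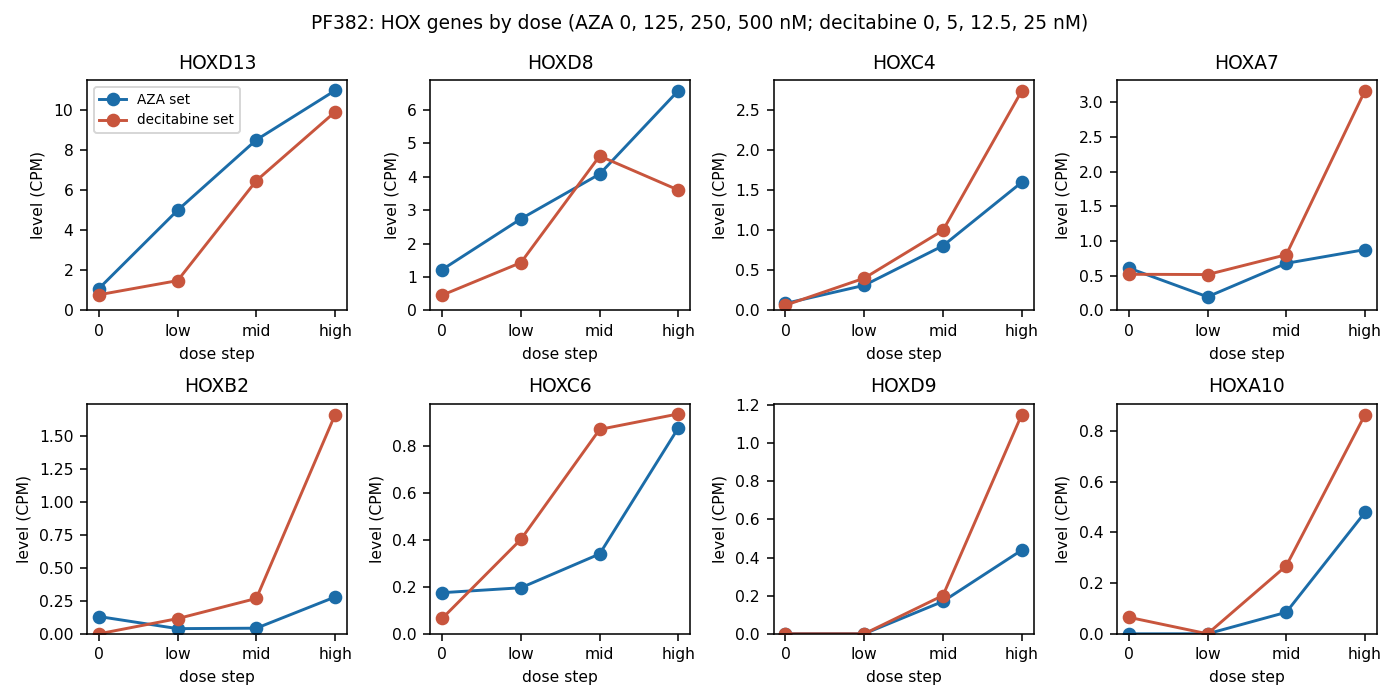
Levels in PF382 (CPM, linear y axis, own scale per gene) of 8 members against dose step from untreated to high (x axis), for the AZA and decitabine sets, 1 library per point. HOXD13 reaches 11 CPM at 500 nM AZA and 9.93 CPM at 25 nM decitabine, and HOXC4 to 1.6 and 2.74 CPM.

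The other HOXD genes varied in PF382. HOXD8, a gene of the middle of the cluster, had 1.22 CPM untreated and 2.74, 4.08 and 6.58 CPM at rising AZA doses in PF382, and 0.456 CPM untreated and 1.43, 4.62 and 3.6 CPM at rising decitabine doses. All 6 treated libraries were above both untreated ones, with pooled ratios of 3.65 (2.48 to 5.58) and 6.82 (3.23 to 17.3), although the slope in PF382 did not pass with either drug. HOXD9, next to HOXD8, had 0 counts untreated and 0, 4 and 11 counts at rising AZA doses in PF382, and 0 untreated and 0, 3 and 16 counts at rising decitabine doses, and it rose with decitabine dose (adjusted p = 0.00625). The pooled level was at least 1.54-fold higher with AZA and at least 2.1-fold higher with decitabine than the 3-count floor. HOXD4 had 14 counts at 500 nM AZA and 0 in the other 3 libraries of that series, and 0, 0, 4 and 4 counts in the decitabine series, and it rose with AZA dose (adjusted p = 0.00235). That call rests on the 500 nM library and was also lost without the 125 nM one. HOXD11, of the posterior cluster, had 1, 0, 5 and 6 counts with AZA and 0, 0, 1 and 7 counts with decitabine. It rose with decitabine dose (adjusted p = 0.0418). That call was lost with DESeq2, without the low-count filter and without any 1 of the 3 decitabine libraries of PF382. The decitabine call of HOXD9 was lost with DESeq2 and without the 5 or 25 nM library. HOXD12 had 5 counts untreated and 5, 3 and 12 at rising AZA doses, and 0 untreated and 1, 9 and 3 at rising decitabine doses. HOXD10 had 0 counts untreated and 0, 1 and 1 with AZA, and 1 untreated and 0, 2 and 5 with decitabine. The slopes of HOXD12 and HOXD10 in PF382 passed with neither drug, and HOXD3, with 2 counts at most in a PF382 library, was below the filter.

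HOXC4 led the HOXC cluster in PF382. It had 2 counts untreated and 8, 19 and 40 counts at rising AZA doses, and 1 count untreated and 7, 15 and 38 counts at rising decitabine doses, reaching 1.6 and 2.74 CPM. No treated library overlapped the untreated ones, and the slopes were 1.10 ± 0.25 (adjusted p = 0.00411) and 1.19 ± 0.24 per doubling (adjusted p = 0.000626). The pooled ratio was 10.4 (2.76 to 87.2) with AZA and 19.9 (3.44 to 799) with decitabine. The neighboring HOXC6, whose exons overlap those of HOXC4, had 4 counts untreated and 5, 8 and 22 counts with AZA, and 1 untreated and 7, 13 and 13 counts with decitabine. Its slopes did not pass, and its pooled ratios were 2.7 (0.967 to 10.5) and 10.9 (1.83 to 445). In TLOm1, where HOXC4 was on, its level spanned 5.05 to 7.5 CPM in treated libraries, against 7.11 and 5.51 CPM untreated.

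In the HOXA and HOXB clusters of PF382 the highest decitabine dose stood out. HOXA7 had 0.521 CPM untreated and 0.517, 0.803 and 3.17 CPM at 5, 12.5 and 25 nM decitabine, and 0.611 CPM untreated and 0.196, 0.679 and 0.877 CPM at rising AZA doses. The 25 nM library was the only one above 1 CPM, and the decitabine slope was 1.21 ± 0.23 (adjusted p = 0.00043). HOXB2 had 0 counts untreated and 2, 4 and 23 counts with decitabine, a slope of 1.87 ± 0.37 (adjusted p = 0.000517) and a pooled level at least 3.21-fold higher. With AZA it had 3 counts untreated and 1, 1 and 7 at rising doses. HOXA10, a gene of the posterior HOXA cluster active in the uterus and in blood progenitors, had 0, 0, 2 and 12 counts in the AZA series and 1, 0, 4 and 12 in the decitabine series, and rose with both (adjusted p = 0.0215 and 0.0152). HOXB6 also rose with decitabine (adjusted p = 0.0336), on 4 counts in the 25 nM library and 0 in the others. DESeq2 called neither HOXB6 with decitabine nor HOXA10 with either drug. Without the 25 nM decitabine library the 8 members became 1 (HOXD13), and without the 5 nM one they became 2 (HOXA7 and HOXB2). Without the 125 or 500 nM AZA library the 4 members with AZA became 0.

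Of the members that were on in untreated PF382, HOXB7 alone was above the untreated library of its set in all 6 treated libraries. HOXA5 was below its untreated library at every dose, with 2.31 CPM untreated and 1.41, 1.1 and 1.68 CPM with AZA, and 2.93 CPM untreated and 1.43, 1.2 and 1.22 CPM with decitabine. No treated library overlapped the untreated ones, and the pooled ratios were 0.606 (0.431 to 0.861) and 0.442 (0.296 to 0.666), but neither contrast passed. HOXA3 had 0.979 to 1.32 CPM with AZA, against 1.27 CPM untreated, and 1 to 1.87 CPM with decitabine, against 1.11 CPM untreated. HOXB4 had 11.2 to 14.2 CPM with AZA, against 11.8 CPM untreated, and 10.2 to 12 CPM with decitabine, against 10.2 CPM untreated. HOXB3, a regulator of hindbrain and blood progenitors, had 13 to 16.5 CPM with AZA, against 15.1 CPM untreated, and 10.4 to 18.4 CPM with decitabine, against 10.6 CPM untreated.

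In TLOm1 the members that rose with AZA dose were HOXB9, HOXD9, HOXD8 and HOXA10. HOXB9 had 175 CPM untreated and 176, 195 and 249 CPM at 125, 250 and 500 nM, a slope of 0.23 ± 0.05 per doubling (adjusted p = 0.00107). The decitabine series ran at 170 CPM untreated and 155, 140 and 160 CPM at rising doses, with no treated library above untreated. HOXD9 had 0, 0, 7 and 14 counts in the AZA series (adjusted p = 0.0285), HOXA10 had 0, 0, 4 and 9 (adjusted p = 0.0488) and HOXD8 had 7, 0, 7 and 13 (adjusted p = 0.0395). Without the 500 nM library 0 of the 4 passed, and without the 125 nM library HOXB9 alone did. The call of HOXA10 held in 5 of 21 alternative settings. The posterior genes HOXD10 and HOXD11, whose exons overlap, had 0, 6, 10 and 19 and 0, 3, 9 and 17 counts with AZA, and 0, 4, 6 and 15 and 1, 1, 5 and 11 counts with decitabine. HOXB5, which marks long-lived stem cells in mice, passed 1 CPM at 250 and 500 nM AZA (1.03 and 1.19 CPM), against 0.772 CPM untreated. HOXB13 stood at 1.27 to 1.97 CPM with AZA, against 2.48 CPM untreated, and at 1.41 to 2 CPM with decitabine, against 2.55 CPM untreated, below untreated at every dose.

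The 13 members that were on in untreated TLOm1 had pooled ratios to untreated of 0.642 to 1.27 with AZA and 0.694 to 1.27 with decitabine. Pooling over doses does not show the rise of HOXB9 with AZA dose. The lowest ratios were those of HOXB13, at 0.642 (0.467 to 0.891) and 0.694 (0.506 to 0.966). HOXA7 had 19.1 to 23.7 CPM with AZA, against 23.2 CPM untreated, and 20.4 to 24.6 CPM with decitabine, against 21.7 CPM untreated, so the groups overlapped. HOXB8 had 11.5 to 13.3 CPM with AZA, against 16.5 CPM untreated, but 11 to 12.8 CPM with decitabine, against 11.1 CPM untreated. The untreated libraries of TLOm1 thus differed in HOXB8 by more than the treated ones of either drug did. HOXB3 was below the untreated library of its set at every dose, with ratios of 0.754 (0.66 to 0.863) and 0.9 (0.779 to 1.04). HOXC4 was below it at each AZA dose and above it at each decitabine dose, with ratios of 0.817 (0.684 to 0.981) and 1.22 (0.996 to 1.5). HOXC6 had 1.36 to 1.95 CPM with AZA, against 1.87 CPM untreated, and HOXD4 had 0.863 to 1.27 CPM, against 1.1 CPM untreated.

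In HH the 6 HOXB genes that were on untreated had pooled ratios of 1.09 to 1.85, lowest for HOXB9 with AZA and highest for HOXB7 with decitabine. HOXB4 had 7.86 CPM untreated and 10.2, 12.4 and 13.7 CPM at 50, 125 and 250 nM AZA, and 9.29 CPM untreated and 11.3, 11.8 and 14.2 CPM at rising decitabine doses. HOXB8 had 7.07 CPM untreated and 8.66, 10.5 and 13 CPM with AZA, and 9.69 CPM untreated and 11.7, 13.6 and 13.1 CPM with decitabine. For HOXB4 every treated library was above both untreated ones, while for HOXB8 the 50 nM AZA library was not. HOXB9 had 120 to 131 CPM with AZA, against 115 CPM untreated, and 120 to 142 CPM with decitabine, against 118 CPM untreated. HOXB3 had 10.1 to 11 CPM with AZA, against 8.51 CPM untreated, and 11.6 to 13.8 CPM with decitabine, against 9.34 CPM untreated. In HOXB2, HOXB3 and HOXB9 too, each treated library was above both untreated ones. HOXB6 had 0.411 CPM untreated and 0.927, 0.646 and 1.21 CPM with AZA, and 0.149 CPM untreated and 0.469, 0.67 and 0.994 CPM with decitabine.

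**Figure D4:**
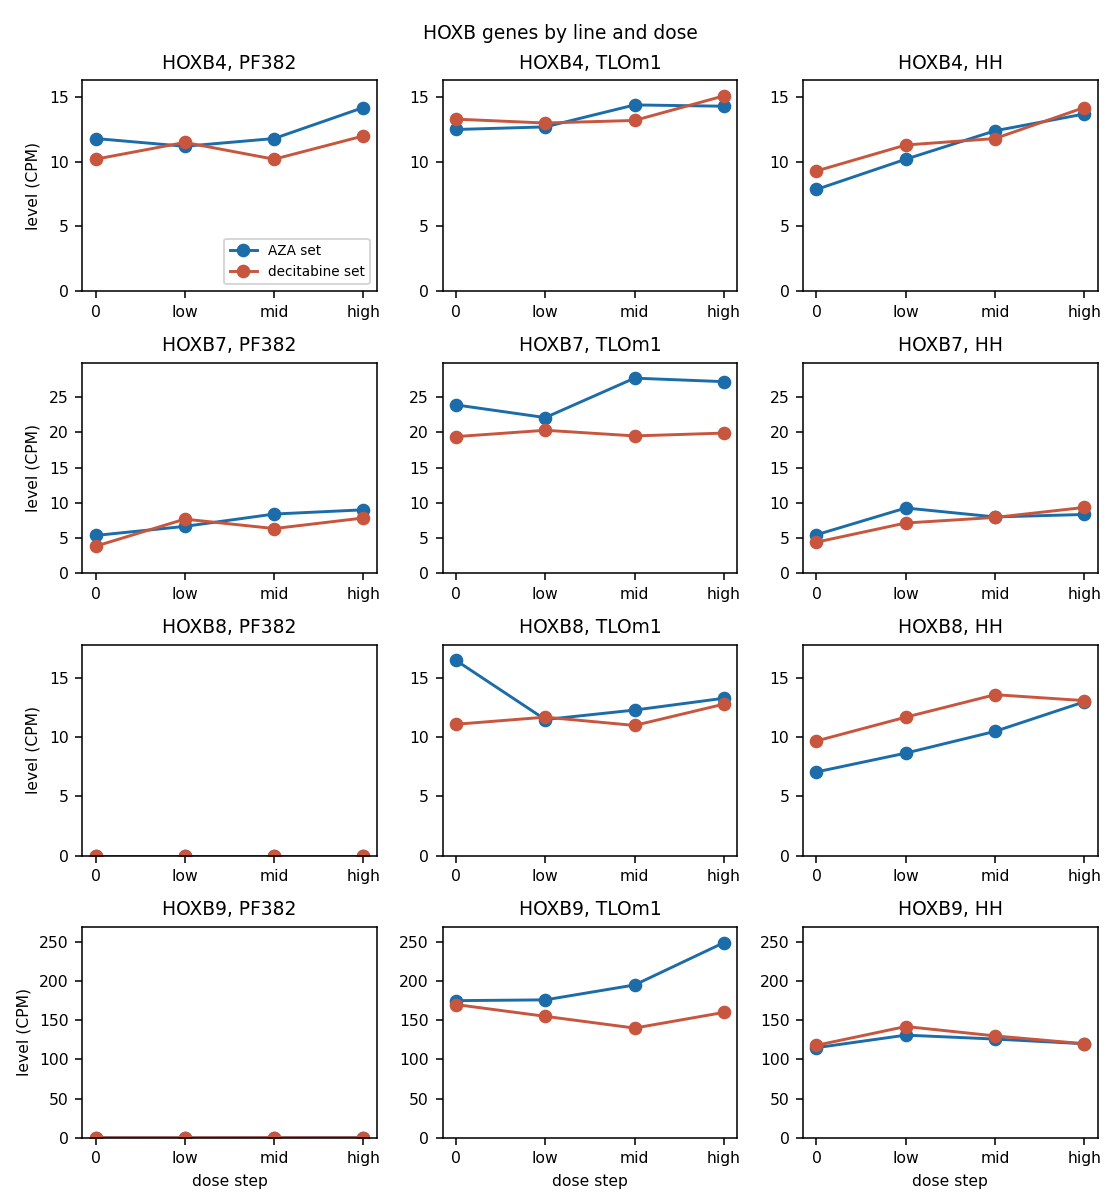
Levels of HOXB4, HOXB7, HOXB8 and HOXB9 (CPM, y axis) by dose step from untreated to high (x axis) in PF382, TLOm1 and HH, for AZA and decitabine. HOXB9 in TLOm1 reaches 249 CPM at 500 nM AZA, and HOXB8 has 0 counts in PF382 at every dose.

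A slope that took the untreated library as dose step 0 was added after the data had been seen. It came from a fit of all 24 libraries with 27 members tested, with the same limit from the low-count filter. In PF382 it called 7 members higher with AZA (HOXC4, HOXD4, HOXD13, HOXA10, HOXD9, HOXD8 and HOXC6) and 10 with decitabine (HOXC4, HOXB2, HOXD13, HOXD9, HOXB6, HOXD11, HOXA7, HOXA10, HOXD8 and HOXC6), against 9.24% and 15.4% of all genes. Per dose step HOXD13 rose by 0.95 ± 0.19 with AZA (adjusted p = 0.00584) and 1.26 ± 0.21 with decitabine (adjusted p = 0.00124), and HOXC4 by 1.22 ± 0.17 and 1.47 ± 0.19 (adjusted p = 2.77e-05 and 4.42e-06). In TLOm1 it called 5 with AZA (HOXD9, HOXD11, HOXB9, HOXD10 and HOXA10) and 0 with decitabine, where 15.3% and 3.47% of all genes were called and 3 members had an unadjusted p under 0.05 with decitabine. In HH it called HOXB4 at 0.26 ± 0.06 (adjusted p = 0.00167) and HOXB8 at 0.29 ± 0.07 (adjusted p = 0.00787) with AZA, and HOXB6, HOXB7 and HOXB13 with decitabine, where 10.5% and 5.45% of all genes were called. HOXB13 in HH had no more than 4 counts in a library. It differed between lines for HOXC4, HOXD4 and HOXB8 with AZA and for HOXC4, HOXB2, HOXB6 and HOXB13 with decitabine, where 18.7% and 12.5% of all genes did. Without the 500 nM library the 7 members with AZA in PF382 became 2, without the untreated library also 2, and the 10 with decitabine became 3 without the 25 nM library and 5 without the untreated one. In TLOm1 the 5 members with AZA became 1 (HOXD9) without the 500 nM library and 2 (HOXB9 and HOXD9) without the untreated one. In HH neither HOXB4 nor HOXB8 passed without the untreated AZA-set library, HOXB8 did not without the 250 nM one, and the 3 members with decitabine became 0 without the untreated decitabine-set or the 25 nM library and 1 (HOXB6) without the 12.5 nM one. The slope among treated libraries differed between lines for HOXA7, HOXB9, HOXC4 and HOXD4 with AZA and for HOXB2, HOXA7, HOXC4 and HOXB6 with decitabine, where 12.2% and 6.62% of all genes did.

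Across the lines, the dose slope among the 9 treated libraries of a drug rose for 2 of 22 members with AZA, HOXD9 (adjusted p = 0.0309) and HOXD8 (0.77 ± 0.23, adjusted p = 0.0496), where 8.04% of all genes rose. It rose for 1 of 18 with decitabine, HOXD13 (1.11 ± 0.24, adjusted p = 0.0408), where 2.6% of all genes rose. HOXD13 had 0 counts in TLOm1 and HH, so its slope was carried by PF382. In HH, HOXD9 had 0 counts and HOXD8 had 1 count over the AZA doses. HOXD8 passed in 1 of 12 alternative settings, HOXD9 in 6 of 10 and HOXD13 in 5 of 12.

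The members that were off in an untreated line were chosen for being low there, so they are set beside all genes chosen the same way. In PF382, 14 of the 32 off members had a count in the untreated AZA-set library and 16, 22 and 27 had one at rising AZA doses, with summed levels of 3.67, 2.7, 4.76 and 9.57 CPM. In the decitabine set 12 had a count untreated and 12, 22 and 26 at rising doses, with 2.54, 2.98, 6.89 and 16.5 CPM. In TLOm1, 11 of 25 had a count untreated and 14, 19 and 19 with AZA, with 3.45, 2.59, 4.88 and 8.06 CPM, and 10 untreated and 16, 15 and 18 with decitabine, with 2.13, 3.46, 3.56 and 4.66 CPM. The highest sums of both lines stood at the highest doses. In HH, 9 of 33 had a count untreated and 10, 11 and 10 with AZA, and 6 untreated and 8, 7 and 12 with decitabine. The HH sums were 0.987 CPM untreated and 3.21, 2.15 and 3.1 CPM with AZA, and 1.14 CPM untreated and 2.4, 1.9 and 3.08 CPM with decitabine, above untreated at each dose. Over all off genes of PF382, 34.3% had a count in the untreated AZA-set library and 44.7% at 500 nM AZA, and 28.5% in the untreated decitabine-set library and 43.4% at 25 nM decitabine. In TLOm1 the shares from untreated to the highest dose went from 37.8% to 48.3% with AZA and from 34.6% to 46.7% with decitabine. For the TLOm1 members they went from 44% to 76% and from 40% to 72%. In HH they went from 33% to 38.8% and from 30% to 37.5%, against 27.3% to 30.3% and 18.2% to 36.4% for the members. The summed level of all off genes of PF382 at the highest dose was 3.02-fold that of untreated with AZA and 4.65-fold with decitabine, against 2.61-fold and 6.49-fold for the members. In TLOm1 the ratios were 3.52 and 2.12 over all off genes, against 2.33 and 2.19 for the members, and in HH they were 2.31 and 2.17, against 3.15 and 2.7. Library totals also differ, as in TLOm1, at 23614169 to 29793985 counts with decitabine and 21609812 untreated. At least 1 CPM was reached by HOXC4 in PF382 at 500 nM AZA and at 12.5 nM decitabine, by HOXA7, HOXB2, HOXC4 and HOXD9 in PF382 at 25 nM decitabine, by HOXB5 in TLOm1 and by HOXB6 in HH at 250 nM AZA. HOXB8 had 0 counts and HOXB9 no more than 8 in every PF382 library, while both were high in TLOm1 and HH.

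**Figure D5:**
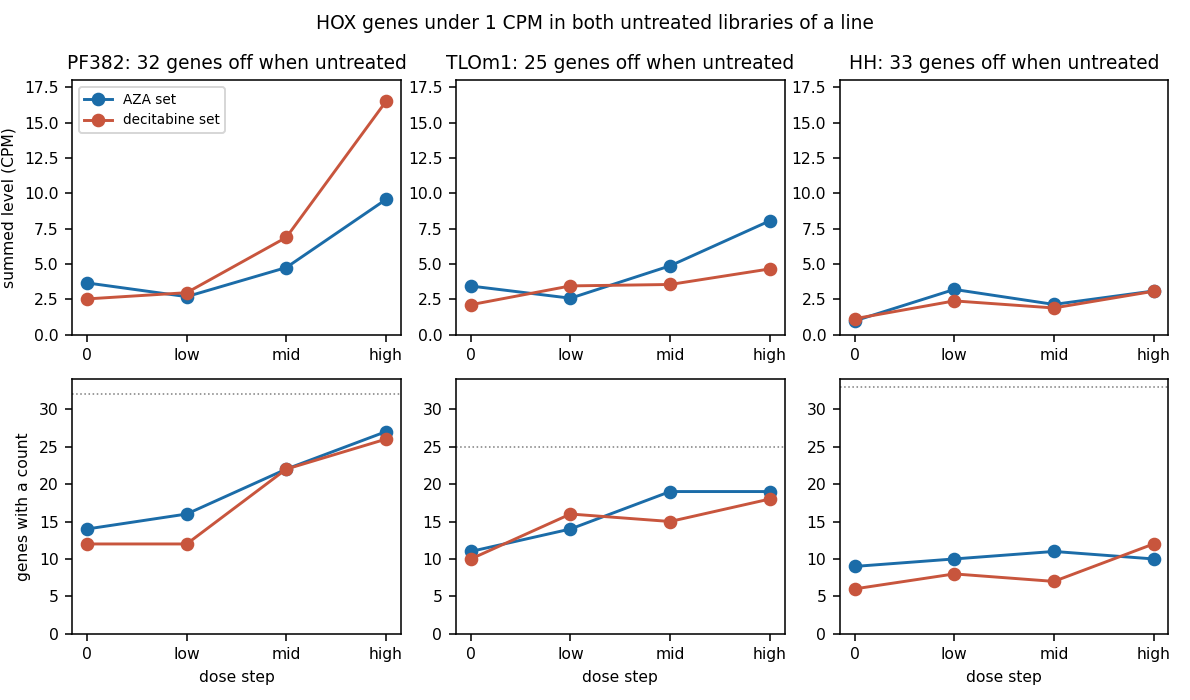
Summed level (CPM, upper panels) and number with a count (lower panels) of the members that were off untreated, by dose step from untreated to high (x axis), in PF382, TLOm1 and HH for the AZA and decitabine sets. Dotted lines mark the number of off members. The PF382 sum reaches 9.57 CPM at 500 nM AZA and 16.5 CPM at 25 nM decitabine.

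Members with more than 3 pooled counts in a group were counted, with a group at 0 set to 3 counts. A gene with a group at 0 was left out where the other group did not pass this floor. A gene at 0 counts untreated could therefore be counted only as above untreated, and the same rule held for all genes. Counted this way, 17 of 24 members in PF382 were above untreated with AZA and 20 of 24 with decitabine, where 60.5% and 60.8% of all genes were. The median log2 ratio was 0.40 and 0.83, against 0.07 and 0.09 over all genes. In TLOm1, 19 of 31 and 17 of 25 were above untreated, where 50.8% and 52.8% of all genes were, with medians of 0.14 and 0.07 against 0.01 and 0.02. In HH, 12 of 12 and 11 of 12 were above untreated, where 53.2% and 60% of all genes were, with medians of 0.64 and 0.45 against 0.02 and 0.06. The rule left out HOXA11 and HOXC6 with AZA and HOXA3 and HOXB13 with decitabine in HH, each at 0 counts untreated.

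Of all genes tested in PF382, 5.96% rose and 3.75% fell with AZA dose, and 10.7% rose and 7.03% fell with decitabine dose. Of the genes that work with or on the clusters, the TALE cofactors rose with dose in PF382 for 1 of 9 with AZA and 2 of 9 with decitabine. MEIS2, a partner of HOX proteins, had 5.02 CPM untreated and 6.93, 10.2 and 11.7 CPM with AZA (slope 0.35 ± 0.09, adjusted p = 0.00691), and 3 CPM untreated and 4.82, 9.57 and 11.8 CPM with decitabine (0.51 ± 0.09, adjusted p = 0.000135). MEIS1, a cofactor of HOXA9 in leukemia, rose with decitabine by 0.46 per doubling (adjusted p = 0.00519). Of 15 genes tested at the flanks of the clusters, 3 rose and 1 fell with AZA dose and 2 rose with decitabine dose in PF382. SKAP2, an adaptor gene next to the HOXA cluster, had 2, 1, 6 and 40 counts from untreated to 500 nM AZA and 0, 0, 3 and 31 from untreated to 25 nM decitabine, with slopes of 2.56 ± 0.32 (adjusted p = 1.37e-06) and 3.42 ± 0.41 (adjusted p = 5.35e-07). It had 24.3 to 45.2 CPM in TLOm1 and 17.6 to 29.2 CPM in HH.

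Polycomb and MLL genes passed in both directions, read against the same shares of all genes. In PF382, 0 of 11 PRC2 genes rose and 1 fell with AZA dose and 1 rose and 0 fell with decitabine dose, while of 19 PRC1 genes 2 rose and 0 fell with AZA and 2 rose and 2 fell with decitabine. Of 12 MLL and menin genes 0 rose or fell with AZA, and 1 rose and 2 fell with decitabine. Set against untreated PF382, the PRC2 genes JARID2 and PHF19 fell by 0.54 and 0.46 on the log2 scale with AZA (adjusted p = 0.0283 and 0.0348). DOT1L, the histone methyltransferase recruited by MLL fusions, fell by 0.61 with decitabine (adjusted p = 0.0429). CDX1, an upstream activator of HOX genes in mice, was at 2.64 and 5.04 CPM in untreated TLOm1 and fell with AZA dose there (slope -0.72, adjusted p = 0.0174). The cluster RNA HOTAIRM1 had no more than 7 counts in any PF382 library, 1.64 to 3.29 CPM in TLOm1 and 1.14 to 3.07 CPM in HH.

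Summed levels of epithelial and B-cell markers were also higher in treated PF382. The 5 epithelial markers summed to 12.2 to 46 CPM in treated PF382, against 3.58 and 5.06 CPM untreated, with KRT19 at 0 counts in every PF382 library, and 2 rose with dose with each drug. The 5 B-cell markers summed to 17.8 to 27.4 CPM, against 10.6 and 11.8 CPM untreated, with MS4A1 at 0 counts. The sums rest on few genes. In PF382, 1 B-cell marker reached 1 CPM in an untreated library and 2 in a treated one, and 2 and 3 epithelial markers did. Neither rise was particular to PF382. The epithelial sum was 85.6 to 153 CPM in treated TLOm1, against 48.7 and 81.4 CPM untreated. In treated HH the B-cell sum was 1.92 to 4.32 CPM, against 1.81 and 1.89 CPM untreated. The epithelial sum in HH and the B-cell sum in TLOm1 overlapped untreated. The treated and untreated PF382 ranges overlapped for the 6 myeloid markers, at 0.402 to 4.25 CPM against 0.326 and 0.524 CPM, the 4 erythroid markers, at 0.0783 to 0.344 CPM against 0.0652 and 0.262 CPM, and the 6 fibroblast and endothelial markers, at 12.7 to 25.3 CPM against 15 and 15.3 CPM. The myeloid marker MPO, at 0 counts in untreated PF382, rose there with AZA and decitabine dose (slopes 1.38 and 1.96 per doubling). The 8 T-cell markers summed to 1600 to 2190 CPM treated, against 1750 and 1910 CPM untreated. Their part in the HOX results was not tested.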

How the data were processed

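Gene counts were deposited for 24 libraries of 3 cell lines, 1 file per library, and the authors left them unnormalized (whole-number counts per gene). Per the submitters' processing notes, the tools were STAR, limma and DESeq2 and the build was GRCh37.p2. Which counter, annotation and strand setting were used is not given in the sources read. The labels give both poly-A RNA and ribosomal RNA depletion. Libraries were grouped by line, drug and dose from the labels, and the set of each untreated library was read from its title prefix. Counts were scaled to CPM of the library total.

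Tests used edgeR 4.0.16 in R 4.3.3 (quasi-likelihood F test, TMM, robust, filterByExpr with a minimum count of 10 and minimum total of 15), with Benjamini-Hochberg adjustment over all genes and a threshold of 0.05. Drug effects used the line as a block or 6 blocks of line within set. Slopes used treated libraries. Untreated lines were compared in 6 libraries with the set as a block. Scripts were tested on simulated data. Intervals for pooled ratios are exact binomial at 95%. Standard errors are the log2 difference divided by the root of F. Alternatives were DESeq2 1.42.0, RLE factors, no filter, both untreated libraries as controls, no set block, on thresholds and leaving out each library.

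Members with at least 1 CPM in a library are named with values, the others by counts, and results for some genes are not reported here. Related genes past the threshold are named, with up to 4 per list and test by adjusted p, and HOXA6, HOXA9, HOXA10, HOXB1, HOXC10, HOXC12, HOXD1, HOXD3, HOXD10, HOXD11, HOXD12 and HOTAIRM1 were named after their values were seen. Members and lists were chosen with earlier results of these data known. Promoter windows came from RefSeq, in which 20 of 39 members had an entry. The untreated pairs of a line differed by more than counting noise (chi-square per degree of freedom 26.8 to 38.5), so they were kept as separate samples.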

Additional observations from a re-analysis of the deposited data

Results flagged for a closer look

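Dose slopes of HOX cluster genes that differed between PF382, TLOm1 and HH were found by an F test over the 3 lines that was added after the data had been seen (edgeR's quasi-likelihood test, Benjamini-Hochberg adjusted over all genes, 28 members tested). With AZA the test called 4 members, where 12.2% of all genes were called, and with decitabine 4 members, where 6.62% were called, and the AZA share of 14.3% of the members is close to its background. The AZA slopes covered 50 to 250 nM in HH and 125 to 500 nM in the other lines. Line and dose range therefore cannot be told apart where HH is involved. Without the 5 nM library of PF382 0 members were called with decitabine, and without the 25 nM one none of the 4 was. With AZA, HOXA7 and HOXB9 were not called without the 50 nM library of HH, nor HOXB9 without the 250 nM one. HOXC4 and HOXD4 were not called with AZA without the 125 or 500 nM library of PF382 or the 125 nM library of TLOm1, HOXD4 was not without the 250 nM library of PF382, and HOXA7 alone was without the 500 nM library of TLOm1. With decitabine HOXB2 alone was called without the 5 nM library of TLOm1, HOXA7 and HOXB2 without its 25 nM library, and HOXB6 was not called without the 12.5 nM library of PF382 or the 5 or 25 nM library of HH.

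With AZA the slopes of HOXA7 differed (adjusted p = 0.00203), on 5, 16 and 22 counts at rising doses in PF382, 19.1, 20.8 and 23.7 CPM in TLOm1 and 7, 0 and 0 counts in HH. Those of HOXB9 differed (adjusted p = 0.00468), at 176, 195 and 249 CPM in TLOm1 and 131, 126 and 120 CPM in HH. Those of HOXC4 differed (adjusted p = 0.0074), with 8, 19 and 40 counts in PF382 and 6.62, 5.74 and 5.05 CPM in TLOm1. Those of HOXD4 differed (adjusted p = 0.0231), with 0, 0 and 14 counts in PF382 and 0.863, 1.03 and 1.27 CPM in TLOm1.

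With decitabine the slopes of HOXB2 differed (adjusted p = 0.00363), with 2, 4 and 23 counts in PF382, 4.92, 4.06 and 5.38 CPM in TLOm1 and 10.4, 7.65 and 9.3 CPM in HH. Those of HOXA7 differed (adjusted p = 0.00475), at 0.517, 0.803 and 3.17 CPM in PF382 and 24.6, 20.4 and 23.9 CPM in TLOm1. Those of HOXC4 differed (adjusted p = 0.0284), with 7, 15 and 38 counts in PF382 and 6.2, 6.54 and 7.5 CPM in TLOm1. Those of HOXB6 differed (adjusted p = 0.0397), with 0, 0 and 4 counts in PF382, 5.1, 3.96 and 3.56 CPM in TLOm1 and 0.469, 0.67 and 0.994 CPM in HH.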

How the results depend on the processing

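Of 1498 alternative values for called members, 1310 kept the direction and the call, 188 lost the call and 0 reversed. Some of the 188 had no direction left, such as the slopes of HOXD4 with AZA and HOXB6 with decitabine in PF382, which fell to 0. Many alternatives left out a library of another line or drug, which bears little on the result concerned. With both untreated libraries as controls the members called were 3 with AZA in PF382, 1 in TLOm1 and 1 in HH, and 1 with decitabine in PF382, where 727, 1766, 1047 and 1474 of all genes were called, against 148, 178, 0 and 46 with 1 control. With DESeq2 the rising slopes were 0 with AZA and 0 with decitabine across lines, 2 and 1 with AZA in PF382 and TLOm1 and 4 with decitabine in PF382, while slopes from untreated were 2, 2 and 5, slopes that differed between lines were 2 and 2, decitabine in PF382 called 1 and PF382 was higher than TLOm1 in 0. Over all genes DESeq2 called 1115 with AZA and 468 with decitabine across lines, against 189 and 0 by edgeR, and 440 with decitabine in PF382, against 46. RLE factors gave 1 slope across lines with AZA. Without the filter on low counts 7 and 2 members rose with AZA in PF382 and TLOm1. An on threshold of 0.5 CPM gave 8 members in PF382.

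Leaving out each library gave 0 to 6 rising members with AZA and 1 to 9 with decitabine in PF382, 0 to 4 with AZA in TLOm1, 0 to 1 rising and 0 to 1 falling with AZA in HH, and 0 to 1 across lines with each drug. From untreated the ranges were 2 to 8 and 3 to 12 in PF382, 1 to 5 with AZA and 0 to 1 with decitabine in TLOm1, and 0 to 3 in HH with each drug. Slopes that differed numbered 1 to 6 and 0 to 4, and from untreated 2 to 5 and 1 to 5. Untreated, PF382 was higher than HH in 5 to 8 and lower in 3 to 4, higher than TLOm1 in 0 to 3 and lower in 11 to 13, and TLOm1 was higher than HH in 11 to 17. AZA in HH called 0 to 1 and decitabine in PF382 0 to 2. The lone library of each condition was assumed to vary like the others. The line or the library set entered the fits as a block, but no pairing on replicate numbers was made, since the labels give none that tie libraries of different groups. Low counts of members off untreated limit their calls.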
